A study of Mus musculus with 6 samples.

Results

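The genes of MHC class I antigen presentation were described in lung fibroblasts (LFs) of the mouse. They are the class I heavy chains H2-K1 and H2-D1, the light chain B2m, the peptide transporter subunits Tap1 and Tap2, tapasin (Tapbp), the immunoproteasome subunits Psmb8, Psmb9 and Psmb10, and the transactivator Nlrc5. These 10 genes were chosen by symbol, as genes of the pathway, out of 55364 genes listed in the count tables. No threshold on a measured value was used, but earlier results of these data were known. Each of the 10 was found once. Primary LFs carrying wild type Tks5 (labelled WT) or a Tks5 knockout allele (labelled TKS5 KO) were all kept in serum-free medium with 10 ng/ml TGFβ for 24 h, and 3 libraries of each genotype were sequenced. The study names the second genotype Tks5+/-, that is, heterozygous for an allele deleted in the whole body with CMV-Cre, and took LFs from 8- to 10-week-old C57Bl6/J mice and littermates. Its libraries are called TKS5 KO libraries here, after their labels. No untreated LFs were sequenced, so the comparison is of genotypes under TGFβ. The study describes the samples of its panels as biologically independent, while the labels do not say whether the replicates were separate animals or cultures, and the p-values measure the spread between these libraries.

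Class I molecules carry peptides of the cell's own proteins to its surface, where CD8 T cells read them. The proteasome cuts proteins into peptides, the transporter of Tap1 and Tap2 carries these into the endoplasmic reticulum, tapasin holds an empty class I molecule at the transporter until a fitting peptide is bound, and beta 2 microglobulin, the product of B2m, completes the molecule. Interferon makes cells exchange the constitutive catalytic subunits of the proteasome for Psmb8, Psmb9 and Psmb10, and raises most other genes of the pathway, with Nlrc5 as the activator of their promoters. Nearly all nucleated cells, fibroblasts included, present peptides in this way.

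The promoters of the heavy and light chains are shown because their shared elements (a kappaB site, an interferon-stimulated response element and the X2 and Y boxes that Nlrc5 works through) are the textbook link between these genes. The stretches come from RefSeq promoters of GRCm38.p6, which had entries for 8 of the 10 genes, all but Tap2 and Nlrc5. Capitals mark the letters searched on both strands, which were GGGATTCCC (kappaB), GAAANNGAA (the core of the interferon-stimulated response element), TTCNNNGAA (the STAT-bound GAS), TGACG (part of the X2 box) and CCAAT (the Y box, ATTGG on the other strand). H2-K1 lies at chr17:34000349-34000458 on the reverse strand, H2-D1 at chr17:35262923-35263032 on the forward strand, and B2m at chr2:122147542-122147686 on the forward strand, each written 5′ to 3′ along its gene.
H2-K1: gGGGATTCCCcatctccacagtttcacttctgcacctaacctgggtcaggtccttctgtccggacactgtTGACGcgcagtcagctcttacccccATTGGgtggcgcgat
H2-D1: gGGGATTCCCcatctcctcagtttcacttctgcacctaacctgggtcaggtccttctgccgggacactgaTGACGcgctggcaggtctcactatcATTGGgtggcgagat
B2m: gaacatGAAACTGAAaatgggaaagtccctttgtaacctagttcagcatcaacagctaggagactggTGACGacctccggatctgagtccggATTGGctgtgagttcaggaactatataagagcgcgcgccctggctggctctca
The H2-K1 and H2-D1 stretches were identical at 98 of 110 bases (89.1%). Both held the kappaB letters, TGACG and ATTGG, and neither held the letters searched for the interferon-stimulated core. The kappaB letters occurred in 0.353% of all 32851 RefSeq promoters, searched over 300 bases each as the genes above were, TGACG in 20.8%, CCAAT in 37.4% and the interferon-stimulated core in 8.56%, so that the shorter letters are common. B2m held the interferon-stimulated core and no exact match to the kappaB letters. Variants of the letters were not searched, so that an unmarked stretch may still hold any of these elements.

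The transporter and immunoproteasome genes are shown for comparison, since Tap1 and Psmb9 are read in opposite directions from a shared stretch and Psmb8 was the only one of the 8 genes with an entry to hold a match of the GAS letters, which 8.30% of promoters hold. Tap1 lies at chr17:34187306-34187555 on the forward strand and Psmb8 at chr17:34198075-34198194 on the forward strand.
Tap1: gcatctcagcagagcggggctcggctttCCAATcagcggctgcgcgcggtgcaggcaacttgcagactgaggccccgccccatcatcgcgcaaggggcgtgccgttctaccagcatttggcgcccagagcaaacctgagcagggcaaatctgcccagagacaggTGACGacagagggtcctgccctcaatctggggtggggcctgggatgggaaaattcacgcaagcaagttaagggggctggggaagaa
Psmb8: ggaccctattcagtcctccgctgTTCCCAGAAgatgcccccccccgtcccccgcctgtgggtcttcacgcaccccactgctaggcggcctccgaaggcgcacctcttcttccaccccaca
The RefSeq starts of Tap1 and Psmb9 lay 226 bases apart, and their 300-base promoters shared 275 bases. Psmb10 had no match to any of the letters, and Tapbp matched CCAAT alone. A match is a description of letters and not a bound site, and the absence of one says nothing about the factor.

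Read counts were raw counts at the 3′ ends of transcripts and added up to between 1344507 and 2369882 per library. With edgeR's quasi-likelihood test, 10346 genes were tested, and a gene was called where its Benjamini-Hochberg adjusted p over all of them fell below 0.05 at a change of 1.2-fold or more. In the TKS5 KO libraries 2286 genes (22.1%) were called lower and 2356 (22.8%) higher, with a median log2 fold change of -0.05, and scaling by library totals alone moved this median to -0.47, with 3944 lower and 1362 higher. The levels below are CPM, the counts divided by the TMM-scaled size of the library. The targeted gene Sh3pxd2a, which encodes Tks5, had 205, 190 and 284 counts in WT and 238, 258 and 260 in TKS5 KO libraries, which gave a log2 fold change of 0.29 (with a standard error, SE, of 0.20, adjusted p = 0.249). The study reports reduced Tks5 mRNA in Tks5+/- LFs by Q-RT-PCR normalized to B2m. The reads here come from the 3′ end of the transcript and not from the deleted exon. Whether the deleted allele still yields such reads was not tested. The count was therefore not used to check the genotype, and every direction below rests on the labels. Markers of fibroblasts were abundant in every library, with 5932 to 10727 counts of Acta2 (smooth muscle actin) and 2970 to 6429 of Col1a1 (a collagen I chain), while 6 of 9 lymphocyte markers had no count in any library and the other 3 at most 3. WT replicate 3 stood apart by its macrophage markers, whose summed level was 2703 CPM there and 151 to 498 in the other 5 libraries, and the counts of class I genes are therefore given with and without it. In bulk RNA, fewer cells of a type and less RNA per cell cannot be told apart.

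Of the 10 genes, 8 had enough counts to be tested, and 5 of these (H2-D1, Tap1, Tap2, Tapbp and Psmb8) were called lower in TKS5 KO libraries, where 22.1% of all tested genes were. None was called higher, against 22.8% of all, and as all 8 estimates lay below 0 with edgeR, DESeq2 and limma, 0 were higher at an unadjusted p under 0.05 as well. H2-K1, B2m and Psmb10 were not called, and Psmb9 and Nlrc5 did not pass the filter on low counts. The median log2 fold change of the 8 was -0.97, against -0.05 over all genes tested. In 5 of the 8 (H2-K1, H2-D1, Tap1, Tap2 and Tapbp), all TKS5 KO libraries lay below all WT libraries, which held for 27.6% of all tested genes. The count of 5 rests in part on single libraries. It was 4 without WT replicate 1 and 3 (H2-D1, Tap1 and Tapbp) without any 1 of the other 5 libraries, and the median was -0.72 without WT replicate 3.

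**Figure D1:**
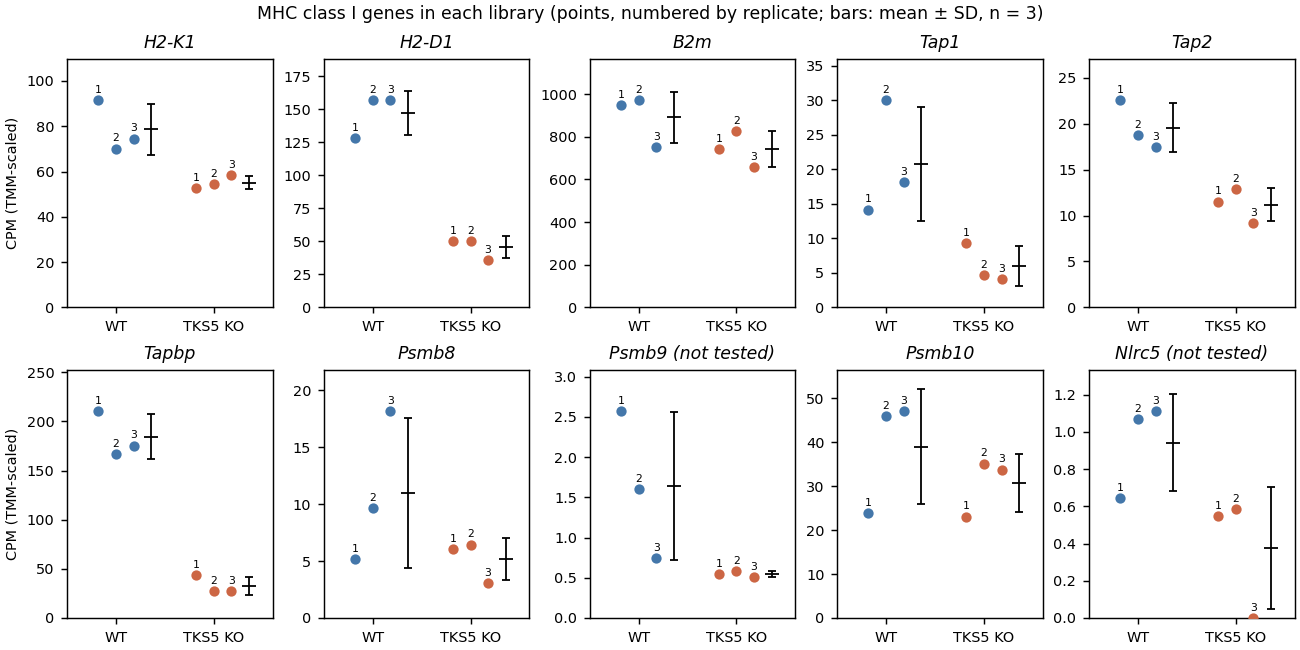
Level of each of the 10 genes in CPM on linear axes, with a point for each library numbered by replicate (WT blue, TKS5 KO orange) and the mean ± SD of 3 libraries as a bar. Tapbp (167 to 211 CPM in WT, 26.9 to 43.4 in TKS5 KO) and H2-D1 (128 to 157 and 35.8 to 50.5) are widely apart, while the points of B2m, Psmb8 and Psmb10 overlap between the genotypes.

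Among the heavy chains, which hold the peptide and meet the T cell receptor, H2-D1 was lower and H2-K1 was not called. H2-D1 (ENSMUSG00000073411, chromosome 17 from 35262730 to 35267499 on the forward strand of GRCm38) had 199, 293 and 423 counts in WT replicates 1 to 3 and 92, 86 and 70 in TKS5 KO replicates 1 to 3. No TKS5 KO library reached the lowest WT library. This was 147 ± 16.6 CPM (SD, n = 3) against 45.5 ± 8.42 (SD, n = 3), 3.24-fold lower (log2 fold change -1.70, standard error 0.22, adjusted p = 2.34e-06). It remained called with each library left out, between -1.79 and -1.51 on the log2 scale.

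H2-K1 (ENSMUSG00000061232, chromosome 17 from 33996017 to 34000347 on the reverse strand) had 142, 131 and 201 counts in WT and 96, 93 and 114 in TKS5 KO libraries. In CPM this was 91.4, 70.1 and 74.5 against 52.7, 54.4 and 58.3, so that the groups did not overlap, and the exact two-sided permutation test gave p = 0.1, the smallest that 3 libraries against 3 can give. The log2 fold change was -0.51 (SE 0.21) with a 95% interval of -0.95 to -0.07 and an adjusted p of 0.0552, just above the threshold of 0.05. It was called under 5 of 21 alternative ways of processing, among them upper-quartile scaling (adjusted p = 0.0396) and a filter of at least 10 counts in every library (0.0333), and over all 21 its adjusted p ran from 0.00129 to 0.197.

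The counts of both heavy chains were set against each other within each library. For every 100 counts of H2-K1 there were 140, 224 and 210 of H2-D1 in WT and 95.8, 92.5 and 61.4 in TKS5 KO libraries, so that H2-D1 gave the larger count in each WT library and the smaller in each TKS5 KO library. A ratio within a library does not depend on how libraries are scaled, and it is no ratio of molecules. Its log2 difference was -1.19 (exact permutation p = 0.1, the smallest possible, and 0.133 adjusted over the 8 ratios computed). The ratio was chosen after the values of both genes had been seen.

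Strain alleles and near-identical copies can affect where reads of H2 genes align. In the last 500 bases of the transcripts, from which the reads come, 2 of 451 windows of 50 bases (0.444%) were shared between H2-K1 and H2-D1. Of the H2-D1 windows 43 of 451 (9.53%) occurred in the transcripts of 80 other genes, of which H2-K1 was the only H2 gene, and the other 8 of the 10 genes shared none. The genome read against is that of C57BL/6J, the strain given for the mice. Whether the mice carried other alleles around H2-K1 or H2-D1 was not tested.

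The light chain B2m was not called. B2m (ENSMUSG00000060802, chromosome 2 from 122147686 to 122153083 on the forward strand) had 1474, 1813 and 2028 counts in WT and 1354, 1414 and 1285 in TKS5 KO libraries. Its CPM were 949, 970 and 752 against 743, 827 and 658, and the TKS5 KO values overlapped those of WT replicate 3. The log2 fold change was -0.26 (SE 0.20, 95% interval -0.68 to 0.16, adjusted p = 0.307). B2m depended on the processing: it was called lower when libraries were scaled by their totals (log2 fold change -0.68), in the authors' normalized counts (-0.99) and after correction for transcript length (-0.90), or for GC content and length (-0.95). Patl2, annotated on the opposite strand across the 3′ end of B2m, had no counts. The heavy chains were also set against B2m within each library. For every 100 counts of B2m there were 9.63, 7.23 and 9.91 of H2-K1 in WT and 7.09, 6.58 and 8.87 in TKS5 KO libraries, which overlapped (exact permutation p = 0.2, 0.2 adjusted over 8 ratios), and 16.8 ± 3.73 (SD, n = 3) against 6.11 ± 0.674 (SD, n = 3) of H2-D1, which did not (exact permutation p = 0.1, 0.133 adjusted). These ratios were added after the values had been seen.

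Loading of the peptide rests on Tapbp, whose change was the largest of the 8 tested genes. Tapbp (ENSMUSG00000024308, chromosome 17 from 33915899 to 33929292 on the forward strand) had 327, 312 and 473 counts in WT and 79, 46 and 53 in TKS5 KO libraries. The lowest WT library, at 167 CPM, was far above the highest TKS5 KO library, at 43.4 CPM. The means were 184 ± 23.1 CPM (SD, n = 3) and 32.5 ± 9.43 (SD, n = 3), a 5.66-fold difference (log2 fold change -2.50, standard error 0.24, adjusted p = 5.13e-08), which stayed between -2.91 and -2.25 under all 21 alternatives. At its 5′ end Tapbp overlaps the genes Zbtb22 and Gm19412, whose log2 fold changes of 0.44 and 0.41 were not called.

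The transporter subunits Tap1 and Tap2 were both called lower. Tap1 (ENSMUSG00000037321, chromosome 17 from 34187553 to 34197225 on the forward strand) had 22, 56 and 49 counts in WT and 17, 8 and 8 in TKS5 KO libraries. WT replicate 1, at 14.2 CPM, was the lowest of WT and TKS5 KO replicate 1, at 9.33, the highest of its group, so that the groups were close but apart. On the log2 scale its difference was -1.78 (SE 0.39, adjusted p = 0.000827), and with each library left out it stayed called, between -2.18 and -1.43.

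Tap2 (ENSMUSG00000024339, chromosome 17 from 34203527 to 34216321 on the forward strand) had 35, 35 and 47 counts against 21, 22 and 18. All TKS5 KO libraries, at 9.21 to 12.9 CPM, were below all WT libraries, at 17.4 to 22.5. The log2 fold change of -0.80 (SE 0.31, adjusted p = 0.0415) lost its call under 15 of 21 alternatives. These include the removal of any 1 of the 6 libraries, which gave adjusted p values of 0.0530 to 0.156 with log2 fold changes of -0.88 to -0.63. A smaller difference than that of Tap1 was therefore measured for Tap2, and the difference between them was not tested.

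The immunoproteasome subunits replace the constitutive ones in the cutting chamber, and their counts were low. Psmb8 (ENSMUSG00000024338, chromosome 17 from 34197721 to 34201454 on the forward strand) had 8, 18 and 49 counts in WT and 11, 11 and 6 in TKS5 KO libraries. WT replicate 1, at 5.15 CPM, lay within the TKS5 KO range of 3.07 to 6.44, and WT replicate 3, at 18.2, stood highest. The log2 fold change of -1.15 (SE 0.46, adjusted p = 0.0471) lost its call under 13 of 20 alternatives and, without WT replicate 3, was -0.54 (adjusted p = 0.445). It lost its call also without WT replicate 2 (adjusted p = 0.0595) or any 1 of the TKS5 KO libraries (0.0664 to 0.193). The exact permutation test of the CPM gave p = 0.3.

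Psmb10 (ENSMUSG00000031897, chromosome 8 from 105935735 to 105938444 on the reverse strand) had 37, 86 and 127 counts in WT and 42, 60 and 66 in TKS5 KO libraries. Its lowest library in each group, WT replicate 1 at 23.8 CPM and TKS5 KO replicate 1 at 23.1, were nearly equal. The log2 fold change of -0.36 (SE 0.27, 95% interval -0.93 to 0.20, adjusted p = 0.290) was not called. Psmb9 (ENSMUSG00000096727, chromosome 17 from 34181987 to 34187764 on the reverse strand) had 4, 3 and 2 counts against 1, 1 and 1, below the filter for the test, and at up to 3 counts a library cannot be told from one with none. Psmb9 overlaps Tap1 by 212 bases at their 5′ ends, away from the 3′ ends that were counted. Genes annotated on the opposite strand across the 3′ ends of Psmb8 (Gm20496) and Psmb10 (Gm16156) had no counts.

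Of the constitutive subunits, none was called lower. Of Psmb5, Psmb6 and Psmb7, the catalytic subunits that Psmb8, Psmb9 and Psmb10 stand in for, Psmb5 and Psmb7 were called higher (log2 fold changes 1.05 and 1.40, adjusted p = 0.000652 and 9.24e-05) and Psmb6 was not (0.43, adjusted p = 0.0992). Psmb5 had 96, 83 and 128 counts in WT and 153, 211 and 212 in TKS5 KO libraries. The median of the 3 was 1.05 and fell to 0.41, with 1 of them called, after correction for transcript length. For every 100 counts of Psmb5 there were 8.33, 21.7 and 38.3 of Psmb8 in WT and 7.19, 5.21 and 2.83 in TKS5 KO libraries. WT replicate 1 was close to TKS5 KO replicate 1, and the groups did not overlap. For every 100 counts of Psmb7 there were 51.4, 80.4 and 75.6 of Psmb10 against 23.5, 25.6 and 16.5, and again the groups did not overlap. The log2 differences were -1.87 and -1.63, each with an exact two-sided permutation p of 0.1, the smallest possible, and 0.133 adjusted over 8 ratios. The ratio of Psmb9 to Psmb6 rested on 1 to 4 counts of Psmb9. It did not overlap as deposited but did once 2 counts were added to each gene for the log2 ratio (exact permutation p = 0.2, 0.2 adjusted).

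**Figure D2:**
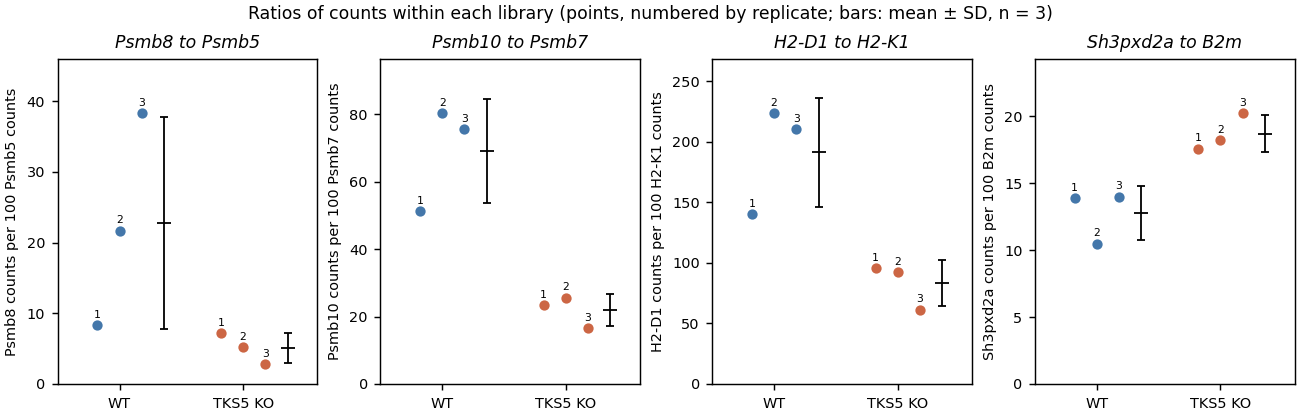
Counts of the first gene for every 100 counts of the second in each library (points numbered by replicate, WT blue and TKS5 KO orange), on linear axes from 0, with the mean ± SD of 3 libraries. Psmb8 to Psmb5 ran from 8.33 to 38.3 in WT and from 2.83 to 7.19 in TKS5 KO, and Sh3pxd2a to B2m was the one ratio shown that was higher in TKS5 KO libraries.

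Nlrc5, the class I transactivator (ENSMUSG00000074151, chromosome 8 from 94434356 to 94527272 on the forward strand), had 1, 2 and 3 counts in WT and 1, 1 and 0 in TKS5 KO libraries. All 6 lay at or under 3 counts, the limit that a count of 0 allows, and no fold change can be given at this depth. With no filter on low counts, Psmb9 and Nlrc5 were tested and not called by edgeR (adjusted p = 0.459 and 0.514), and DESeq2 called neither (adjusted p = 0.507 for Psmb9, none given for Nlrc5). Of the 8 other factors of the class I promoters (the Rfx, Nfy and Creb families that bind the X and Y boxes), 6 were tested, with a median of 0.21, and 1 was called. Nfyb, a subunit of the factor of the Y box, rose from 18.3 ± 2.39 CPM (SD, n = 3) to 50.8 ± 6.77 (SD, n = 3), which is 1.47 on the log2 scale (adjusted p = 5.22e-05). Creb1, the highest in CPM of those not called, had a log2 fold change of 0.31 (adjusted p = 0.357). The median was -0.21 on library totals, where Nfyb was still the only one called.

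Around the core genes, 7 of 12 partners of loading and trimming were called lower, 1 higher and 4 not, with a median of -0.87, and the counts were 7 and 1 without WT replicate 3. For this and every other list, the shares over all tested genes were 22.1% lower and 22.8% higher. Erap1, the aminopeptidase that trims peptides inside the endoplasmic reticulum, had 54, 96 and 112 counts in WT and 29, 12 and 21 in TKS5 KO libraries, a log2 fold change of -1.91 (SE 0.30, adjusted p = 2.38e-05). Its highest TKS5 KO library was below its lowest WT library. Tapbpl, another peptide editor related to tapasin, had a log2 fold change of -1.36 (adjusted p = 0.00140). The chaperone Canx (calnexin) fell from 463 ± 41.4 CPM (SD, n = 3) to 226 ± 27.4 (SD, n = 3), and Pdia3, the oxidoreductase ERp57 bound to tapasin, from 125 ± 16.2 (SD, n = 3) to 63.8 ± 7.76 (SD, n = 3). The cytosolic and endosomal peptidases Ide and Lnpep were at -1.30 and -1.21 on the log2 scale (adjusted p = 0.00279 and 0.00177). The Sec61 channel parted, with Sec61a1 at -0.76 (adjusted p = 0.00379) and Sec61b at 1.91 (adjusted p = 7.67e-07). Hspa5 (the chaperone BiP), the highest in CPM of the 4 not called, was at -0.30 (adjusted p = 0.269).

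Proteasome activators and assembly factors were called higher in 5 of 9 and lower in 1, with a median of 0.86. Psme2, a subunit of the interferon-induced activator PA28, had 42, 38 and 58 counts in WT and 81, 76 and 70 in TKS5 KO libraries (log2 fold change 0.86, adjusted p = 0.00690). The WT libraries were all lower than the TKS5 KO libraries on the CPM scale. Pomp, which assembles immuno- and constitutive proteasomes, was at 0.88 (adjusted p = 0.00233) and was the highest in CPM of this list. The assembly chaperones Psmg1, Psmg2 and Psmg4 were at 1.81, 1.47 and 1.11 (adjusted p = 0.000921, 7.55e-05 and 0.0128), and Psmg4 lost its call without WT replicate 3 or TKS5 KO replicate 2. Psme4, an activator of another family, was at -1.07 (adjusted p = 0.00280), and Psmg3, the highest in CPM of those not called, at 0.43 (adjusted p = 0.183). On library totals 2 were called higher and 1 lower, and after correction for transcript length 3 and 1.

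Other class I chains, which present to specialised receptors or carry immunoglobulin, had few reads, and 5 of 17 could be tested. H2-T22, a nonclassical chain seen by gamma delta T cells, had 27, 29 and 51 counts in WT and 68, 65 and 47 in TKS5 KO libraries, a log2 fold change of 0.93 (SE 0.27, adjusted p = 0.00845). All its TKS5 KO libraries were above all its WT libraries in CPM. Fcgrt, the heavy chain of the neonatal Fc receptor, which pairs with B2m, was at -0.60 (adjusted p = 0.0261). It lost its call without WT replicate 1 or 2 or TKS5 KO replicate 1 or 2 (adjusted p = 0.0730 to 0.118) and was called in 13 of 21 alternatives. Mr1, which presents vitamin metabolites and was the highest in CPM of those not called, was at -0.46 (adjusted p = 0.292). The median of the 5 was -0.15, and on library totals 2 were called lower and none higher. H2-T22 shares sequence with other H2-T genes, and reads counted for it may belong to copies.

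Upstream of the promoters, 6 of 16 tested genes of interferon and NF-kappaB signalling were called lower and 2 higher, with a median of -0.47. Of all tested genes, 22.1% were called lower and 22.8% higher. Stat2, a transducer of type I interferon signals, had 13, 37 and 23 counts in WT and 5, 5 and 5 in TKS5 KO libraries (log2 fold change -2.13, adjusted p = 0.00113). The groups did not overlap. Jak2, Irf7, Irf9 and Rela were at -1.14, -1.19, -0.71 and -0.65 (adjusted p = 0.00533, 0.00160, 0.0111 and 0.0156). Stat3 and Socs3, a target and feedback inhibitor of Stat3, were at 0.67 and 1.75 (adjusted p = 0.0355 and 0.000802). Jak1, the highest in CPM of those not called, was at -0.28 (adjusted p = 0.299). Some calls rest on single libraries, with 1 called higher without WT replicate 2 or 3 and 4 to 7 lower with each library left out. Stat3 lost its call without WT replicate 2 or 3 or TKS5 KO replicate 1, Irf9 without WT replicate 2 or TKS5 KO replicate 1, and Rela without TKS5 KO replicate 2 or 3.

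Interferon-stimulated genes that are none of the 10 were lower in 12 of 15 tested and higher in 2, with a median of -2.06, and 12 and 1 without WT replicate 3. Bst2 (tetherin, which holds back viruses at the membrane) was at -3.21 (adjusted p = 6.54e-09) and Oasl2 (a sensor-related gene of the antiviral response) at -4.09 (adjusted p = 1.47e-06), while Ifi27 was at 1.04 (adjusted p = 0.000192). The summed level of these 23 genes was 849, 1323 and 1089 CPM in WT replicates 1 to 3 and 709, 707 and 634 in TKS5 KO replicates. WT replicate 1 was lowest of WT in this sum, as it was in H2-D1, Tap1, Psmb8 and Psmb10, but it was the highest of WT in H2-K1, Tap2, Tapbp and Psmb9.

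Markers of other cell types also differed between the genotypes, and some of these cells are rich in class I genes. Of 20 macrophage markers, 14 were tested and 7 called lower, with none higher, and their summed level was 498, 426 and 2703 CPM in WT replicates 1 to 3 and 151 to 169 in TKS5 KO replicates. WT replicate 3 had 3502 counts of Lyz2 (lysozyme) against 298 and 337 in the other WT libraries. Itgax and Adgre1, surface molecules of macrophages, were at 21.2 ± 12.7 and 7.49 ± 4.45 CPM (SD, n = 3) in WT. Adgre1, Spi1, Marco and Ptprc had no count in any TKS5 KO library. Spi1, Marco and Ptprc were named after their values were seen, and with all 6 libraries they did not pass the filter on low counts. The other 7 tested markers of the list (Lyz2, Tyrobp, Fcer1g, Cd14, Ctss, C1qa and C1qc) were not called. With each library left out in turn, 11 of 14 tested were called lower without WT replicate 3, 10 of 16 and 10 of 15 without WT replicates 1 and 2, and 5 of 17, 4 of 16 and 4 of 16 without TKS5 KO replicates 1, 2 and 3, with none higher in any of these 6 fits. Without WT replicate 3, H2-D1, Tap1 and Tapbp were at -1.65, -1.88 and -2.54 on the log2 scale and still called (adjusted p = 3.01e-06, 0.000949 and 4.44e-09), while Psmb8 (-0.54) was not. Tap2, which lost its call with any 1 library left out, was at -0.88 there (adjusted p = 0.0586), against -0.80 with all 6. The part of macrophage RNA in these values was not tested.

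Endothelial markers were called lower in 4 of 5 tested, with summed levels of 115 to 149 CPM in WT and 45.6 to 60.4 in TKS5 KO libraries, and Pecam1 (an adhesion molecule of vessels) had no count in the latter. The single mesothelial marker tested, Upk3b, was lower (log2 fold change -3.28, adjusted p = 0.000130), and the 2 epithelial markers tested were called in opposite directions. Ager, a marker of alveolar type I cells that gave nearly all epithelial counts in TKS5 KO libraries, was called higher (1.82, adjusted p = 4.53e-05). It had 20, 18 and 35 counts in WT and 68, 103 and 57 in TKS5 KO libraries. Rnf5, whose 3′ end lies near that of Ager on the opposite strand, had 20, 18 and 35 against 73, 112 and 60. The reads counted for Ager may therefore be those of Rnf5. The tight junction gene Cldn4 was lower (-4.51, adjusted p = 2.13e-05), and Cdh1 (E-cadherin) had 17, 8 and 58 counts in WT and none in TKS5 KO libraries. Of 12 fibroblast markers, 5 were called higher and 1 lower, with a median of 0.42, but on library totals 3 were higher and 5 lower, and 3 were higher and 2 lower without WT replicate 3 (median 0.25) or TKS5 KO replicate 1 (0.18). Thy1 (a surface glycoprotein) and Vim (vimentin) were at 1.93 and 1.27 (adjusted p = 1.48e-06 and 5.60e-05). Pdgfrb, a growth factor receptor, was the 1 called lower, and lay between -1.18 and -0.73 with each library left out. The 6 not called were Col1a1, Col1a2, Dcn, Lum, Acta2 and Postn. The part of these cells in the class I values was not tested. MHC class II genes, which present to CD4 T cells, could be tested for 4 of 9, with 1 called lower and 1 higher. H2-Ab1, a class II chain, had 1, 8 and 7 counts in WT and 31, 15 and 20 in TKS5 KO libraries (log2 fold change 2.19, adjusted p = 0.00113), and H2-Aa, the chain it pairs with, had no count in any library. H2-DMb1, an editor of class II peptides, was at -1.15 (adjusted p = 0.00151). Ctss and Ifi30, the highest in CPM of this list, were at -3.52 and -0.38 and not called (adjusted p = 0.0808 and 0.164). Ctss had 988 counts in WT replicate 3 against 71 and 87 in the other WT libraries, and without that replicate it was called lower at -1.77 (adjusted p = 3.98e-05), which made 2 class II genes lower and 1 higher.

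On chromosome 17, 7 of the 10 genes lie between the start of Tapbp and the end of H2-D1, a stretch of 1352 kb that holds part of the MHC. Position is no part of the rule by which they were chosen. Of the 6 tested there, 5 were called lower, while of 52 other tested genes 16 were lower, 9 higher and 27 not called, with a median of -0.33. Over all genes tested, 22.1% were called lower and 22.8% higher, with a median of -0.05. Neighbours differed in direction, and Rgl2, 13.6 kb from the start of Tapbp, was at -1.11 while Rps18, 36.1 kb away, was at 1.96 (Rgl2 was picked after its value was seen). Among the other genes, the 5 with the smallest adjusted p were Cfb, Nelfe, Gm20547, C4b and Rps18. Cfb, the protease of the alternative complement pathway, had 1081, 1262 and 940 counts in WT and 47, 38 and 54 in TKS5 KO libraries, a log2 fold change of -4.50 (adjusted p = 2.22e-10). Nelfe and Gm20547 adjoin or overlap Cfb, had similar counts in each library, and may share its reads. The calls in this stretch may therefore not all be separate. C4b, a complement component encoded near it, was at -4.60 (adjusted p = 1.29e-08). Rps18, a ribosomal protein of the small subunit, had 870 ± 161 CPM (SD, n = 3) in WT and 3391 ± 256 (SD, n = 3) in TKS5 KO libraries, 3.90-fold higher (adjusted p = 3.06e-07).

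**Figure D3:**
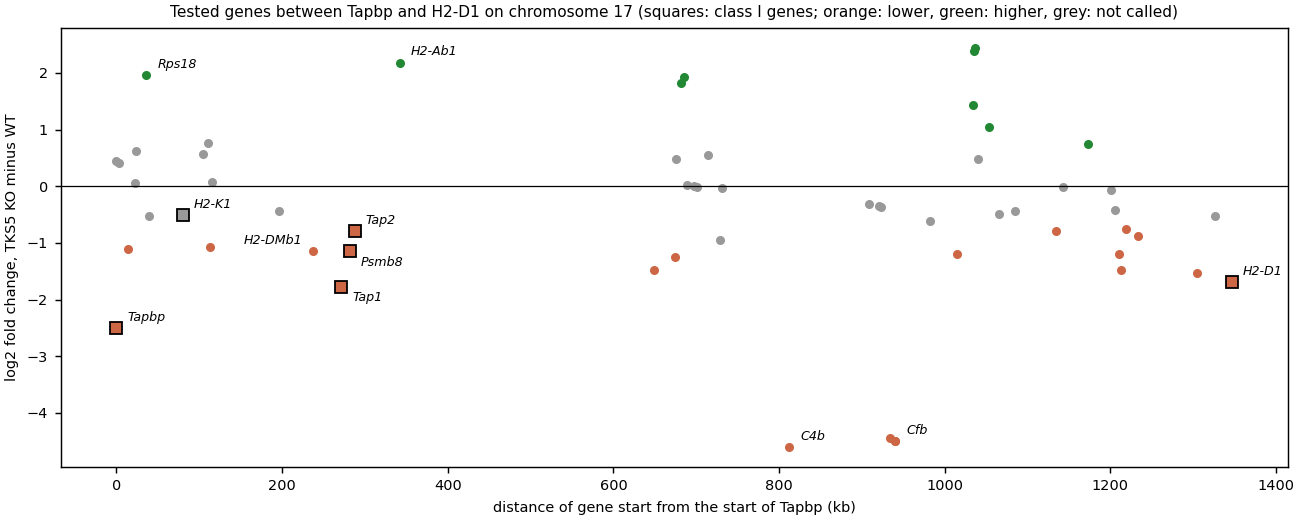
Log2 fold change of TKS5 KO minus WT libraries for the 58 tested genes between Tapbp and H2-D1 on chromosome 17, against the distance of the gene start from the start of Tapbp in kb. Squares are class I genes, colour gives the call. The squares lie at or below -0.51 and C4b at -4.60, while Rps18 and H2-Ab1 lie at 1.96 and 2.19.

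The study normalized its Q-RT-PCR to B2m, a class I gene, and the comparison is therefore given. Of 14 reference genes (B2m among them), 7 were called higher and 1 lower, with a median of 0.58, and on library totals 2 were called higher and 5 lower. Without WT replicate 2, 4 were called higher. Ppia (cyclophilin A) and Pgk1 (a glycolytic enzyme) were at 1.73 and 1.64 on the log2 scale (adjusted p = 1.55e-06 and 2.00e-06), while Actb, at -0.40 (adjusted p = 0.129), was not called. Counts of Sh3pxd2a for every 100 counts of B2m were 13.9, 10.5 and 14.0 in WT and 17.6, 18.3 and 20.2 in TKS5 KO libraries, the latter all higher. Their log2 difference was 0.55, and that of Col1a1 to B2m 0.69, each with an exact two-sided permutation p of 0.1, the smallest possible, and 0.133 adjusted over 8 ratios. By Q-RT-PCR, the study reports the other direction for Tks5 mRNA in Tks5+/- LFs. It also reports less Col1a1 by immunostaining in Tks5+/- LFs taken after bleomycin. In lung tissue of Tks5+/- mice after bleomycin, it reports lower Col1a1 mRNA by Q-RT-PCR normalized to B2m. Those are other measures than the 3′ counts under TGFβ here, and for Col1a1 another condition. From the same sequencing as used here, the study reports several matrix genes, collagens among them, as lower in Tks5+/- LFs. Col1a1 itself was not called here, and the cause of the difference was not tested.

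The processing mattered more for some genes than for others. H2-D1, Tapbp and Tap1 were called lower in every alternative that tested them (21, 21 and 20), B2m and Psmb10 were called in 4 and 2 of 21, H2-K1 in 5 of 21, and Tap2 and Psmb8 kept their call in 6 of 21 and 7 of 20. No fold change of the 8 tested genes turned sign in any of them. Over all alternatives Psmb10 ran from -0.84 to -0.08 on the log2 scale.

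**Figure D4:**
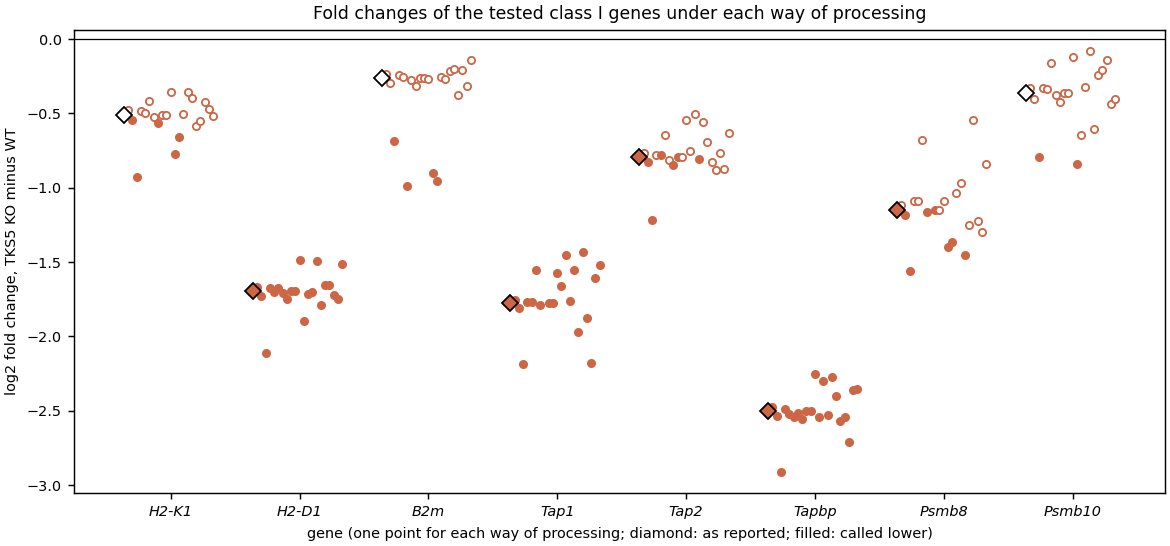
Log2 fold change of TKS5 KO minus WT libraries for each tested gene under the way of processing reported (diamond) and each alternative (circle), filled where the gene was called lower. All points lie below 0, Tapbp between -2.91 and -2.25, and B2m between -0.99 and -0.14.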

How the data were processed

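Quant-Seq reads, which come from the 3′ ends of transcripts, were trimmed by the authors with Trim Galore, aligned to GRCm38 with HISAT2 and then BOWTIE2, counted on 3′ UTR regions (at least 300 bases, with a flank of 50) and summed per gene. The raw counts so deposited are the values used here. The authors' normalized counts, made with EDASeq and rounded, were used as a score in 1 alternative. The options of EDASeq and the use of strand in the counting are not given in the sources used here. Some genes on opposite strands with neighbouring 3′ ends, such as Ager and Rnf5 or Cfb and Nelfe, had similar counts in every library. Reads of such pairs may be shared. Each library was assigned to its genotype by its label. Gene names and coordinates come from GENCODE M21 (GRCm38), which matched 55104 of the 55364 genes, of which 33644 had no count.

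The test was edgeR 4.0.16 in R 4.3.3 (the robust quasi-likelihood F test over all 6 libraries, after filterByExpr and TMM scaling, with Benjamini-Hochberg adjustment for 10346 genes), the source of every adjusted p unless an alternative is named. Its common dispersion was 0.0429. CPM use the TMM-scaled library sizes, and ratios within a library add 2 counts to each gene before the log2. Each standard error was derived as the absolute log2 fold change divided by the square root of its F statistic. The 95% intervals were built from this standard error with the t distribution. Single values were compared by exact two-sided permutation tests. The depth of 1344507 to 2369882 counts allows up to 3 counts where 0 were seen, for counting error only. Alternatives were RLE and upper-quartile scaling, library totals, DESeq2 1.42.0, limma-voom (limma 3.58.1), limma on the authors' normalized counts, a filter of at least 10 counts in every library or none, no fold change threshold or a test against 1.2, corrections for GC content and transcript length (loess span 0.5), a block for the replicate number, and the removal of each library in turn. Tables and plots used Python 3.11.15 with pandas 2.3.3, numpy 2.4.6, matplotlib 3.10.9 and Biopython 1.88.

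The 10 genes and all gene lists were chosen with earlier results of these data known. Named were the 10 genes, their overlapping genes, Sh3pxd2a, the called genes of 6 pathway lists with the most abundant uncalled one of each, up to 4 genes of each other list by adjusted p and CPM, and the 5 other called genes of the chromosome 17 region with the smallest adjusted p. Some of these are not reported here. Markers at 0, Pdgfrb, uncalled macrophage and fibroblast markers, Rgl2 and Rnf5 were added after their values were seen.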

Additional observations from a re-analysis of the deposited data

How the results depend on the processing

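Over all alternatives, single-gene values of the 8 tested genes kept their direction and side of the threshold 127 times, lost the call 28 times and gained it 11 times, with 0 changes of sign. The 127 include the alternative with no fold change threshold, which repeats the reported fit. The number called lower, 5 as reported, was 3 with RLE scaling, DESeq2, the test against a fold change of 1.2, the GC correction and the replicate block with GC correction, 8 on library totals, and 3 to 4 with each library left out. None was called higher under any of them. The median log2 fold change, -0.97 as reported, was -1.39 on library totals, -0.71 with at least 10 counts in every library (where Tap1 and Psmb8 were not tested), -0.82 with the GC correction, -1.15 with the length correction, -1.16 with both, -0.76 with the replicate block and GC correction, and -1.09 to -0.72 with each library left out. Library totals also moved the median of all genes, from -0.05 to -0.47. The ratios within libraries kept their sign with 0.5 counts added and with each library left out.

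The replicate numbers were not found to pair the libraries. Deviations from the group means of libraries with the same number correlated at -0.001, -0.064 and 0.082, and WT replicate 1 correlated best with TKS5 KO replicate 2 (0.097). With the replicate block, 4 of the 8 were called lower with a median of -0.92, Psmb8 losing its call (adjusted p = 0.0824), and 2308 genes were called lower and 2360 higher in all. Where a call was lost or gained, the cause was not tested. Psmb9 and Nlrc5, at 0 to 4 counts, were tested only by DESeq2 and by edgeR with no filter, and neither was called.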
